A study of Mus musculus with 8 samples.

Results

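Proteasome genes of the mouse hypothalamus were compared between pools of male C57BL/6J inbred mice that had gained much or little weight on a high-fat diet. The genes were all those whose symbol begins with Psm followed by one of the letters a to g and a digit, among probes annotated to a single gene, and 37 of the 14411 such probes (of 33012 probes in the table) met this rule, 1 probe for each of 37 genes among 13840 genes so named. Of these, 34 had a value on all 7 arrays compared and were tested. They comprise 14 genes of the 20S core (12 tested), 12 of the 19S cap (12 tested), 9 of activators, inhibitor and assembly chaperones (8 tested) and 2 whose symbols only contain a subunit's name. Further proteasome genes without a probe naming a single gene, such as Psma1, Psmb6, Psmb9, Psmd1, Psmd14 and Psme1, were not analysed here.

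The proteasome is the large protease that degrades most intracellular proteins marked by ubiquitin chains. Its 20S core is a barrel of stacked rings, in which outer alpha rings gate the entry and inner beta rings hold the proteolytic sites. The 19S cap binds the core, recognises and removes ubiquitin, unfolds the substrate with a ring of ATPases and feeds it into the barrel. Other activators open the gate without ATP, and dedicated chaperones build the particles. In neurons the proteasome is known for its part in protein turnover at synapses.

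Each group was 1 pool of hypothalamic RNA from 20 mice, measured on 4 arrays. Both groups were of the same strain and sex and received the same regimen, a high-fat diet (D12331) for 6 weeks, a low-fat diet for 2 weeks and the high-fat diet again for 6 weeks. In the paper's protocol with these weeks, the low-fat diet was restricted to a part of each mouse's earlier intake. The groups carried no allele or agent that separated them and differed by the labels in weight gain, high or low, and the labels give no age. The 4 arrays of a group were technical replicates of its pool, so that the p-values measure the spread between arrays and not between mice. The hypothalamus was bulk tissue, in which fewer cells of a type and less RNA per cell cannot be told apart.

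Low gainer array 2 stood apart from the other 7 arrays. Its log intensities correlated with theirs at r = 0.227 to 0.241, against 0.943 to 0.987 among the others, and only 5375 probes had a value on all 8 arrays, against 11169 on the other 7. Comparisons therefore set the 4 high gainer arrays against low gainer arrays 1, 3 and 4, and array 2 is described apart. Of the 37 proteasome probes, 18 had a value on that array and 19 had none.

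No proteasome gene passed the test. By limma with Benjamini-Hochberg adjustment over all 11169 probes, 0 of the 34 genes were called higher in high gainers, where 0.0269% of all probes were (3 probes), and 0 were called lower, where 0% of all probes were. Adjusted p-values of the 34 genes ran from 0.750 to 0.992. At an unadjusted p under 0.05 by limma, 4 genes lay lower in high gainers (Psmb1, Psmb4, Psmb5 and Psmd6), against 3.41% of all probes, and 0 lay higher, against 3.07%. At the threshold in the study's methods, a p of 0.01 and a 1.5-fold difference, with the p taken here from limma, 0 genes passed, against 1.03% of all probes. Leaving out low gainer array 1 changed this for Psmb1 and Psmb5, whose differences of -0.78 and -1.37 then had adjusted p-values by limma of 0.0401 and 0.0425. Without that array, 0.689% of all probes were called lower in high gainers, against 0% with it. In that fit 12 proteasome genes instead of 4 had an unadjusted p under 0.05, and 3 passed the methods' threshold. The shares of all probes at these 2 cut-offs in that fit are not given here, so neither count can be read as particular to the proteasome. With median centring 1 proteasome gene passed the methods' threshold, as did 137 of all 11169 probes. Without high gainer array 3 or without high gainer array 4, 1 proteasome gene passed it too. The 4 genes became 2 on leaving out high gainer array 1, 3 or 4 or low gainer array 3. With all 8 arrays they became 0, where Psmb5 was not in the fit, since it had no value on low gainer array 2.

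The direction of the differences was lopsided all the same. The log2 difference, high minus low gainers, was below 0 in 28 of the 34 genes with a median of -0.22, whereas it was below 0 in 50.4% of all probes with a median of -0.00. The 95% interval of the difference included 0 in 30 genes and lay below 0 in 4. On the normalized values all 4 high gainer arrays lay below all 3 low gainer arrays in 4 genes (Psmb4, Psmb10, Psmd2 and Psmd6), against 2.70% of all probes, and above them in 0 genes, against 2.07%. In the other 30 genes the groups overlapped.

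**Figure D1:**
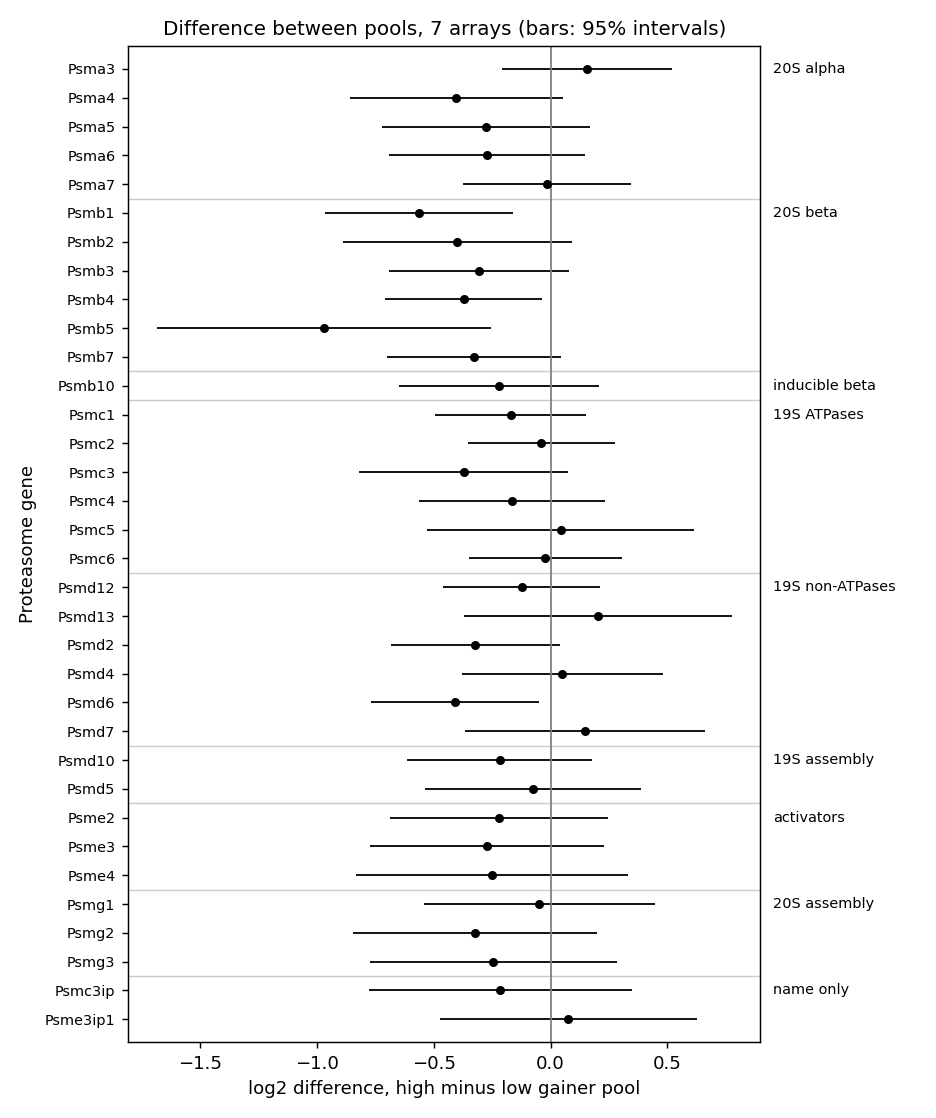
Log2 difference (high minus low gainers, horizontal axis) of each of the 34 tested proteasome genes (vertical axis, grouped by role), with points for the estimates and bars for their 95% intervals. Points lie to the left of 0 in 28 genes, and the bars of Psmb1, Psmb4, Psmb5 and Psmd6 do not reach 0.

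The alpha ring of the 20S core, which forms the gated entrance, was represented by 5 tested genes, of which 4 had a difference below 0 (median -0.27). Psma4 had deposited intensities of 2.01, 2.00, 1.66 and 2.44 on high gainer arrays 1 to 4 and of 2.01, 2.66 and 3.40 on low gainer arrays 1, 3 and 4. Low gainer arrays 3 and 4 lay above every high gainer array while array 1 lay among them, and the log2 difference was -0.40 (95% interval -0.86 to 0.05, adjusted p = 0.784 by limma). Psma6 had intensities of 7.18, 7.42, 6.97 and 6.20 in high gainers and of 6.06, 10.4 and 9.72 in low gainers. Here low gainer array 1 was the lowest of the 7 and arrays 3 and 4 the highest, with a log2 difference of -0.27 (95% interval -0.69 to 0.15). Psma3 was the only gene of the core with a difference above 0, with intensities of 7.18, 7.37, 7.63 and 8.12 in high gainers and of 8.41, 6.72 and 5.69 in low gainers. Its low gainer arrays 3 and 4 were below all high gainer arrays and array 1 was above them, and the log2 difference was 0.16 (95% interval -0.21 to 0.52). Differences of Psma5 and Psma7 were -0.28 and -0.02.

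The beta ring carries the proteolytic sites, and all 6 tested genes of its constitutive form had a difference below 0, with a median of -0.39 and a range from -0.97 to -0.31. Psmb5, the subunit with chymotrypsin-like activity, had deposited intensities of 0.410, 0.364, 0.684 and 0.498 on high gainer arrays 1 to 4 and of 0.527, 0.951 and 1.49 on low gainer arrays 1, 3 and 4. Low gainer array 1 lay among the high gainer arrays and the other two lay above them. The mean was 0.489 ± 0.141 (SD, n = 4) in high and 0.990 ± 0.484 (SD, n = 3) in low gainers, a fitted ratio of high to low of 0.510 and a log2 difference of -0.97 (95% interval -1.69 to -0.26, adjusted p = 0.750 by limma).

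Psmb1, a structural subunit of the same ring, had intensities of 10.1, 11.5, 11.6 and 13.9 in high gainers and of 12.8, 20.5 and 20.2 in low gainers. Only low gainer arrays 3 and 4 were above the high gainer range. Its mean was 11.8 ± 1.59 (SD, n = 4) against 17.9 ± 4.38 (SD, n = 3), a log2 difference of -0.56 (95% interval -0.96 to -0.16, adjusted p = 0.750 by limma). Psmb4, named here after its values were seen because its groups did not overlap, is also a structural subunit and had intensities of 10.1, 12.9, 10.6 and 11.4 against 13.1, 16.7 and 14.0. Every low gainer array exceeded every high gainer array, though array 1 of the low gainers did so by little, and the log2 difference was -0.37 (95% interval -0.71 to -0.04, adjusted p = 0.756 by limma). Differences of Psmb2, Psmb3 and Psmb7, the last of which has trypsin-like activity, were -0.40, -0.31 and -0.33 with intervals that included 0.

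Of the inducible beta subunits, which replace constitutive ones in the immunoproteasome or in the thymus, Psmb10 alone was tested. Its intensities were 0.855, 1.12, 1.03 and 1.01 in high gainers and 1.16, 1.06 and 1.23 in low gainers. The groups overlapped on the deposited values, through high gainer array 2 and low gainer array 3, but not after normalization, and the log2 difference was -0.22 (95% interval -0.65 to 0.21, adjusted p = 0.878 by limma). Psmb8, another interferon-induced subunit, had a value on low gainer array 4 only, 0.175. Psmb11, the subunit of the thymic epithelium, had no value on any of the 8 arrays.

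Together the 12 tested genes of the 20S core had a median difference of -0.32 (range -0.97 to 0.16), 11 of them below 0. Without low gainer array 1 the median was -0.50. The level of a gene could not be separated from that of a near copy where one exists, since the RefSeq gene table names pseudogenes or paralogs for Psma5, Psmb5, Psmb7 and Psme2 and the probe sequences were not used here.

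**Figure D2:**
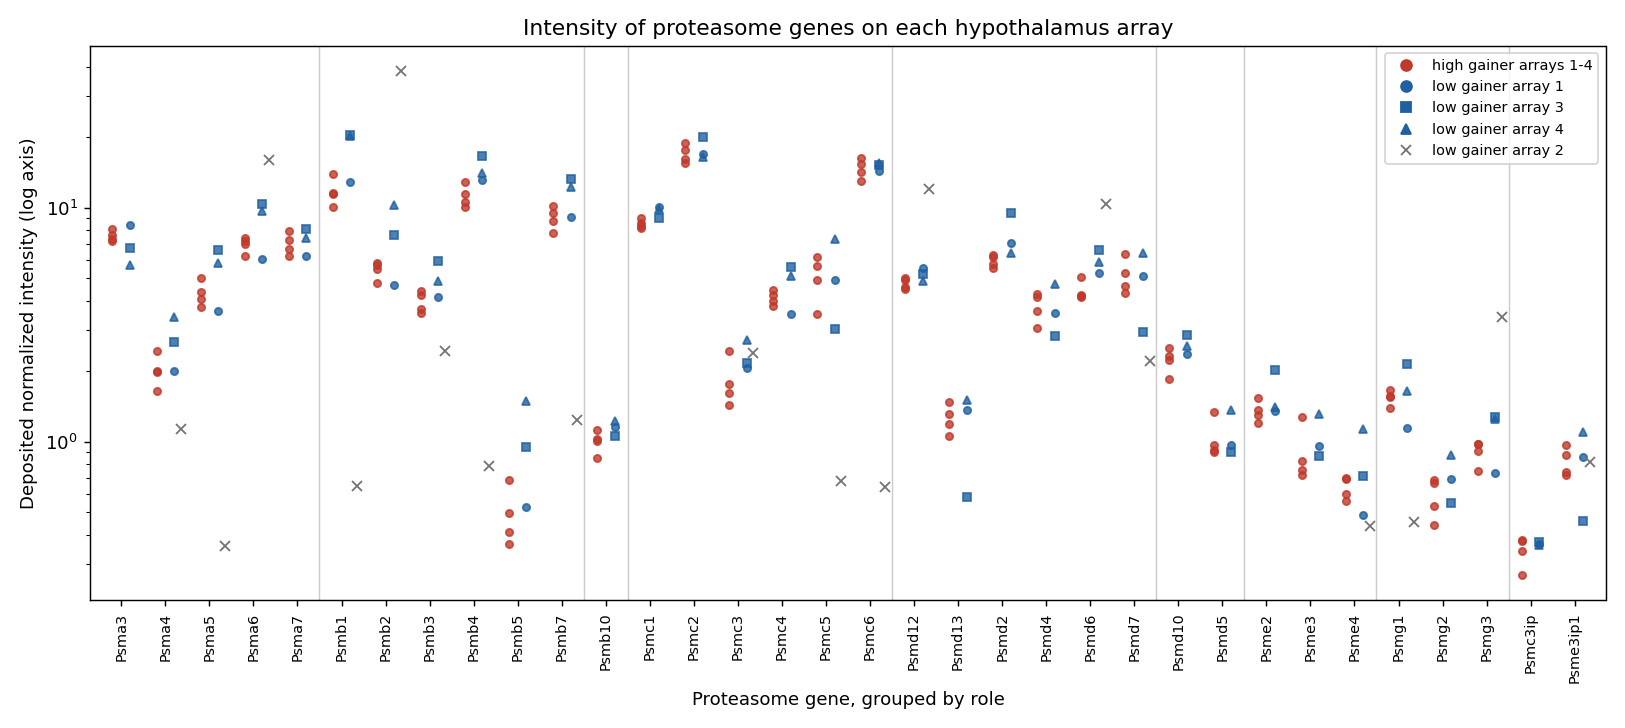
Deposited intensity (log axis) of the tested proteasome genes on each array compared, by role, with red points for the 4 high gainer arrays, blue symbols for low gainer arrays 1, 3 and 4 and grey crosses for low gainer array 2 where it had a value. After normalization the highest of the 7 compared values is on low gainer array 3 or 4 in 27 of 34 genes, while low gainer array 1 lies within the high gainer range in 18.

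Proteasome genes are known to share an element called the antioxidant response element in their promoters, through which the transcription factor Nfe2l1 raises their transcription when proteasome activity falls. Promoters of 300 bases (250 before to 50 after the start site, RefSeq, build GRCm38.p6) were searched on both strands for the core TGANNNNGC, with N for any base. For 31 of the 37 genes there were 35 promoters, and those of Psmb1, Psmb2, Psmb7, Psmc3, Psmd7 and Psmg2 had no entry. The core was in 21 of 35 (60.0%) and in 13581 of all 32851 promoters (41.3%). It was in 10 of 12 promoters of the 20S core (83.3%) and in 4 of 11 of the 19S cap (36.4%). The form TGACTCAGC, which has the same length with the free bases fixed, was in 0 of 35, against 0.454% of all promoters. That share is too low for 0 of 35 to tell anything. The box CCAAT, searched likewise, was in 12 of 35 (34.3%), against 37.4% of all. These matches describe letters in the window and say nothing of binding. The element lay before the start site in only 4 of the 7 tested genes of the 20S core whose promoters held it. Matches before the start site are shown 5′ to 3′ on the gene's strand with the core in capitals (in Psma6 the capitals hold the reverse complement).
Psma4, chr9:54950722-54950750, plus strand: gtgggcagacTGAGCCCGCcccagcactg
Psma6, chr12:55384042-55384070, plus strand: gtcaggtcagGCAACCTCAtcagctctca
Psma6, chr12:55398723-55398751, plus strand: gcgagggcccGCCTACTCAggggcagtgc
Psmb3, chr11:97703414-97703442, plus strand: gcgttgacccTGAGAAAGCcagagccggt
Psmb5, chr14:54618024-54618052, minus strand: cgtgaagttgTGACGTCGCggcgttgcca

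The 250 bases before the start of Psmb5, the gene of the core with the most negative difference, are given in full with the core in capitals, and beside them those of Psmd6, the 19S gene with the most negative difference, which hold no core.
Psmb5, chr14:54617996-54618245, minus strand: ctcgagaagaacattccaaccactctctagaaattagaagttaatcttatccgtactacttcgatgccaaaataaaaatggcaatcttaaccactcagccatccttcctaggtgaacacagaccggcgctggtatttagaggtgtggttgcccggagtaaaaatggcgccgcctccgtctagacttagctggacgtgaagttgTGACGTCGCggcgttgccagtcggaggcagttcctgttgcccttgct
Psmd6, chr14:14120946-14121195, minus strand: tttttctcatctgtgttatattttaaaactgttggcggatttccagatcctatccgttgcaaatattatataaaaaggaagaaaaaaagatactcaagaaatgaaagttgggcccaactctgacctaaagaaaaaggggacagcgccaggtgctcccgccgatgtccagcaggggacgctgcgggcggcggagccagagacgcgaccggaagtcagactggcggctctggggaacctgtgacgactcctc

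The 19S cap was divided between both sides of 0. Its 12 genes had a median difference of -0.08 (range -0.41 to 0.20) with 8 below 0. The 6 ATPases, which form the ring that unfolds substrates, had a median of -0.10 with 5 below 0. Psmc3 had deposited intensities of 1.44, 2.43, 1.77 and 1.62 on high gainer arrays 1 to 4 and of 2.08, 2.16 and 2.71 on low gainer arrays 1, 3 and 4. High gainer array 2 exceeded 2 of the 3 low gainer arrays, and the log2 difference was -0.37 (95% interval -0.82 to 0.07, adjusted p = 0.793 by limma). Psmc1 had intensities of 8.18, 9.02, 8.58 and 8.32 against 10.1, 9.03 and 9.85. The deposited groups came within 9.02 on high gainer array 2 and 9.03 on low gainer array 3 and overlapped after normalization, and the log2 difference was -0.17 (95% interval -0.49 to 0.15). Psmc5 was the only ATPase above 0, at 0.04 (95% interval -0.53 to 0.61), with 3.52, 6.13, 4.91 and 5.65 in high gainers and 4.92, 3.03 and 7.33 in low gainers. Its lowest and its highest array were both low gainer arrays. Psmc2, Psmc4 and Psmc6 had differences of -0.04, -0.17 and -0.02.

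Non-ATPase subunits of the cap hold the scaffold, the ubiquitin receptors and the lid. Of the 6 tested, 3 were below 0 (median -0.04). Psmd6, a lid subunit, had intensities of 4.19, 5.04, 4.22 and 4.14 in high gainers and of 5.25, 6.62 and 5.88 in low gainers. All low gainer arrays were above all high gainer arrays, of which array 2 came closest. The mean was 4.40 ± 0.431 (SD, n = 4) against 5.92 ± 0.684 (SD, n = 3), a log2 difference of -0.41 (95% interval -0.77 to -0.05, adjusted p = 0.752 by limma). Psmd2, a scaffold subunit of the base, had 6.27, 5.53, 5.72 and 6.18 against 7.05, 9.49 and 6.41. The groups did not overlap, although low gainer array 4 was close to high gainer array 1, and the log2 difference was -0.32 (95% interval -0.68 to 0.04, adjusted p = 0.784 by limma).

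Lid subunits Psmd7 and Psmd13 had differences on the other side of 0. Psmd13 had intensities of 1.06, 1.48, 1.19 and 1.31 in high gainers and of 1.37, 0.583 and 1.51 in low gainers. Low gainer array 3 was far below the other arrays, and the log2 difference was 0.20 (95% interval -0.37 to 0.78). Psmd7 had 4.31, 6.31, 5.25 and 4.61 against 5.10, 2.93 and 6.39, again with low gainer array 3 the lowest, and a log2 difference of 0.15 (95% interval -0.37 to 0.66). Without low gainer array 3 both differences were -0.16. Psmd4, a ubiquitin receptor, and Psmd12, a lid subunit, had differences of 0.05 and -0.12.

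The chaperones that assemble the cap were both below 0 (median -0.15). Psmd10, also called gankyrin, had intensities of 2.32, 2.24, 1.85 and 2.51 in high gainers and of 2.37, 2.87 and 2.58 in low gainers, a log2 difference of -0.22 (95% interval -0.61 to 0.18). The low gainer arrays were at the upper end, with array 1 within the high gainer range. Psmd5 had 0.974, 1.34, 0.908 and 0.923 against 0.967, 0.904 and 1.36, a log2 difference of -0.08 (95% interval -0.54 to 0.39), and a single array of each group was high.

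Activators that open the core without ubiquitin were all below 0 (3 genes, median -0.25). Psme2, a part of the interferon-induced activator, had intensities of 1.53, 1.37, 1.21 and 1.30 on high gainer arrays 1 to 4 and of 1.36, 2.03 and 1.41 on low gainer arrays 1, 3 and 4. Only low gainer array 3 was above the high gainer range, and the log2 difference was -0.22 (95% interval -0.69 to 0.25). Psme3, the nuclear member of that family, had 0.832, 1.27, 0.757 and 0.722 against 0.961, 0.872 and 1.32, a log2 difference of -0.27 (95% interval -0.77 to 0.23). High gainer array 2 and low gainer array 4 were its high values. Psme4, a large single-chain activator, had 0.695, 0.701, 0.560 and 0.596 against 0.485, 0.712 and 1.13, so that low gainer arrays gave both its lowest and its highest value, and the log2 difference was -0.25 (95% interval -0.83 to 0.33). The inhibitor Psmf1 had a value on 2 arrays only, 0.208 on high gainer array 1 and 0.181 on low gainer array 3.

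The 20S assembly chaperones Psmg1, Psmg2 and Psmg3, which guide the formation of the alpha ring, had a median of -0.25 with 3 of 3 below 0. Psmg1 had intensities of 1.57, 1.55, 1.66 and 1.39 in high gainers and of 1.15, 2.15 and 1.65 in low gainers (log2 difference -0.05, 95% interval -0.54 to 0.45). Low gainer arrays were at both ends of its range. Psmg2 had 0.440, 0.684, 0.532 and 0.669 against 0.697, 0.548 and 0.876 (log2 difference -0.32, 95% interval -0.84 to 0.20), with low gainer array 3 among the high gainer arrays. Psmg3 had 0.981, 0.910, 0.752 and 0.982 against 0.735, 1.28 and 1.25 (log2 difference -0.25, 95% interval -0.77 to 0.28), where low gainer arrays 3 and 4 were above and array 1 was below all high gainer arrays.

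Genes matched by name only do not encode parts of the proteasome. Psmc3ip, a factor of meiotic recombination, had intensities of 0.376, 0.341, 0.270 and 0.380 against 0.367, 0.373 and 0.362, a log2 difference of -0.22 (95% interval -0.78 to 0.35). Its low gainer arrays lay within the high gainer range on the deposited values, but after normalization array 3 lay above it, and the difference was -0.12 on the deposited values as they are. Psme3ip1, named as a partner of Psme3, had 0.724, 0.972, 0.743 and 0.874 against 0.862, 0.460 and 1.10, a log2 difference of 0.08 (95% interval -0.48 to 0.63), and low gainer arrays 3 and 4 were its lowest and highest. Without both, 27 of 32 genes were below 0 and the median was -0.23.

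Over the proteasome genes as a whole, low gainer arrays 3 and 4 lay farther from the high gainer arrays than array 1 did. Low gainer array 3 had the fewest probes with a value, 13657, against 16379 on array 1 and 16873 on array 4. Leaving out array 3 changed the sign of 9 of the 34 differences. The median over the 34 genes of array minus mean of the high gainer arrays was 0.04 log2 units for low gainer array 1, 0.36 for array 3 and 0.33 for array 4. For the constitutive beta subunits these values were 0.09, 0.54 and 0.67. Single genes departed from this, as in Psmd12, with 0.21, 0.12 and 0.04, and in Psmb10, with 0.23, 0.24 and 0.20. Array 3 or 4 held the highest value in 27 of the 34 genes (79.4%), against 46.0% of all probes, and both exceeded every high gainer array in 15 genes (44.1%), against 15.0% of all probes. The latter held for 10 of the 12 genes of the 20S core (83.3%) and for 3 of the 12 of the cap (25.0%). Low gainer array 1 lay within the range of the high gainer arrays in 18 genes (52.9%), against 59.8% of all probes. The median of the 34 SDs of log2 intensity was 0.17 among high and 0.28 among low gainer arrays, and over all probes it was 0.22 and 0.33.

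In the cap low gainer array 3 varied from gene to gene. Over the 12 genes its median deviation from the high gainer mean was 0.09, with 7 above 0, and over the ATPases it was 0.10. Psmd2, Psmd6 and Psmc4 had deviations of 0.62, 0.57 and 0.41 on that array. It held the lowest value of the 7 arrays in 4 cap genes (Psmc5, Psmd4, Psmd7 and Psmd13) and in Psme3ip1. That made 5 of the 34 proteasome genes, against 1969 of all 11169 probes, so it was not more frequent here than elsewhere. Over the non-ATPase subunits its median deviation was -0.13, against 0.25 for array 4. Whether core and cap differed between the pools was not tested.

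Other large assemblies of the cell were set beside the proteasome. The 64 tested probes of ribosomal proteins had a median difference of -0.22 with 53 below 0, and the 64 of the respiratory chain and ATP synthase had -0.29 with 50 below 0. Both low gainer arrays 3 and 4 exceeded all high gainer arrays in 46.9% of the former and in 45.3% of the latter. The COP9 signalosome, a complex related to the proteasome lid, had a median of 0.01 (4 of 8 below 0), and the CCT chaperonin, which folds actin and tubulin, had -0.11 (4 of 7). No probe of these lists was called by limma. Among the 4852 probes between the quartiles of the proteasome genes' own brightness the median was 0.01, with 2344 below 0.

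**Figure D3:**
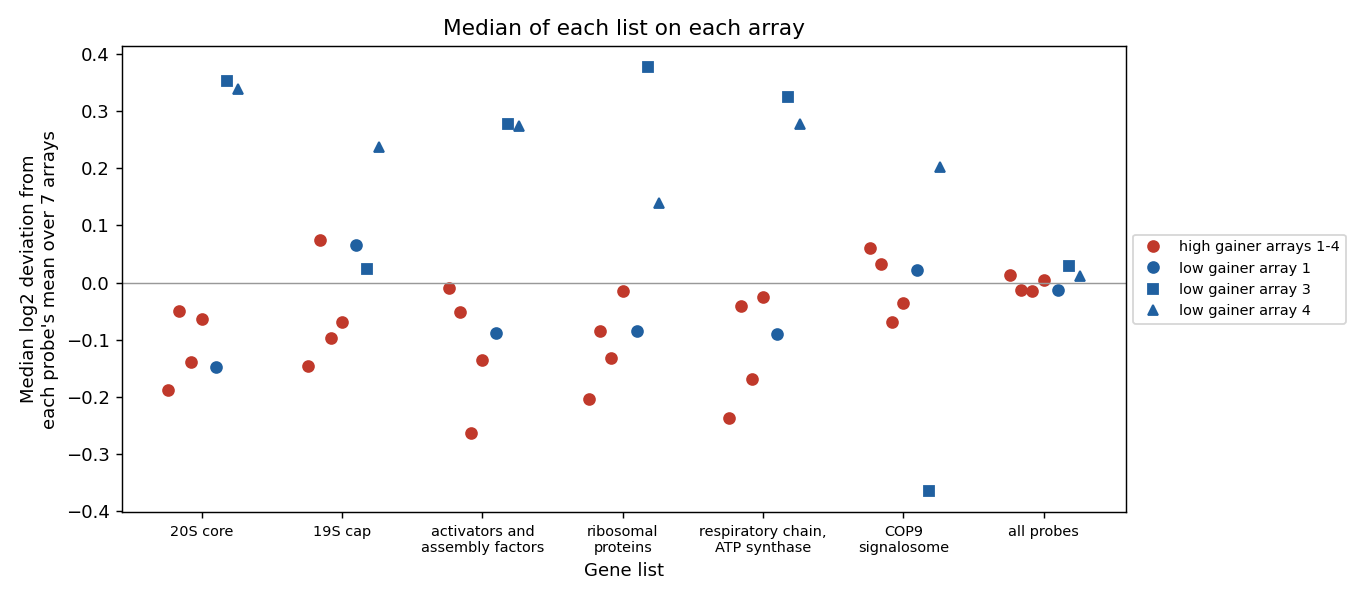
Median deviation of log2 intensity from each probe's mean over the 7 arrays (vertical axis, log2 units) by gene list (horizontal axis), with a symbol for each array compared. The lists are the 20S core, the 19S cap, activators and assembly factors, the ribosome, the respiratory chain with ATP synthase, the COP9 signalosome and all probes. Low gainer arrays 3 and 4 lie at 0.35 and 0.34 for the 20S core, 0.38 and 0.14 for the ribosome and -0.36 and 0.20 for the COP9 signalosome, while low gainer array 1 lies at -0.15, -0.09 and 0.02.

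Genes that act with the proteasome had medians nearer to or above 0. Partners outside the Psm names had a median of 0.04 (4 of 9 below 0), and among them Pomp, the chaperone that matures the core, had 7.36 ± 0.968 (SD, n = 4) in high and 9.40 ± 1.38 (SD, n = 3) in low gainers, a log2 difference of -0.34 (adjusted p = 0.764 by limma). Shuttle factors that carry ubiquitinated proteins to the proteasome had a median of 0.17 (2 of 5 below 0). One of 2 probes for Ubqln2 among them had 16.2 ± 0.718 against 12.6 ± 3.60, a log2 difference of 0.42 (adjusted p = 0.756 by limma), and the other had 0.17. Ubiquitin-activating and -conjugating enzymes had a median of -0.00 (15 of 29 below 0), and Vcp, the segregase that extracts ubiquitinated proteins, had with its cofactors 0.02 (3 of 8 below 0).

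Regulators of proteasome genes were 3 tested probes with a median of 0.12. Nfe2l1, the factor named above, had 0.862 ± 0.219 (SD, n = 4) against 0.582 ± 0.399 (SD, n = 3), a log2 difference of 0.71 (95% interval 0.01 to 1.41, adjusted p = 0.756 by limma). Its estimate was opposite in sign to that of most subunits, but its groups overlapped. It had 0.875, 1.17, 0.733 and 0.673 on high gainer arrays 1 to 4 and 0.388, 0.318 and 1.04 on low gainer arrays 1, 3 and 4. A link between its level and that of the subunits was not tested. Class I antigen presentation, which uses peptides made by the proteasome, had a median of 0.14 (2 of 5 below 0), with Calr at 0.50 and B2m at -0.20. No probe of these lists was called. The genes that encode ubiquitin itself had no probe naming 1 gene and were not analysed here.

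Marker sums of some other cells did not overlap between the groups. The summed intensity of pituitary markers (11 of 13 with a probe, 3 tested, all called higher in high gainers by limma) was 11.1 to 13.0 on high gainer arrays and 1.93 to 2.70 on the low gainer arrays compared. Ghrhr and Pitx1 had no value on the arrays compared. Oligodendrocyte markers (6 of 10) summed to 57.0 to 90.2 against 17.5 to 56.8, and red cell markers (4 of 10) to 8.94 to 15.0 against 18.4 to 37.5. Their lowest and highest sums respectively were on low gainer array 3. The oligodendrocyte sum was mostly Mbp, with 42.1 to 66.7 in high and 9.68 to 36.1 in low gainers, and the groups did not overlap for Mbp and Mag but did for Cldn11, Mog, Trf and Cnp. Likewise the red cell sum was mostly Hba-a1, with 8.11 to 13.9 in high and 17.0 to 35.8 in low gainers. The groups did not overlap for Hba-a1 and the valued probe of Hbq1a but did for Alas2. Slc4a1 had a value only on high gainer array 2 and low gainer array 3. Sums overlapped for microglia (7 of 10 with a probe, 24.4 to 32.2 against 25.5 to 28.4), endothelium (8 of 9, 9.93 to 12.6 against 9.75 to 13.4) and astrocytes (5 of 8, 45.6 to 56.5 against 41.5 to 53.0). Hypothalamic neuron markers (16 of 19, with Ghrh and Nkx2-1 without a value on the arrays compared) marked the tissue and summed to 45.2 to 53.4 against 50.3 to 62.6, with 9 of 10 tested probes below 0. The part of these cells in the proteasome values was not tested.

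Low gainer array 2 gave the 18 genes it measured a different order. Whether its values stand beside the right probes was not tested, and they are given as listed for each gene. Its rank among the probes of its array lay outside the range of the other 7 arrays in 14 of the 18 genes (77.8%), below it in 7 and above it in 7, against 86.6% of the probes valued on all 8 arrays. The median rank was at the percentile of 45.0, against 64.4 to 72.5 on the other arrays. Psmb1 was listed at 0.644 and Psmb4 at 0.791 on array 2, where the other 7 arrays had at least 10.1. Psma6 was listed at 16.0 and Psmd6 at 10.3, above all other arrays. With all 8 arrays in the fit, 18 genes had a value on each, 10 of them below 0, and the median difference was -0.17, with adjusted p-values by limma from 0.717 to 0.839.

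**Figure D4:**
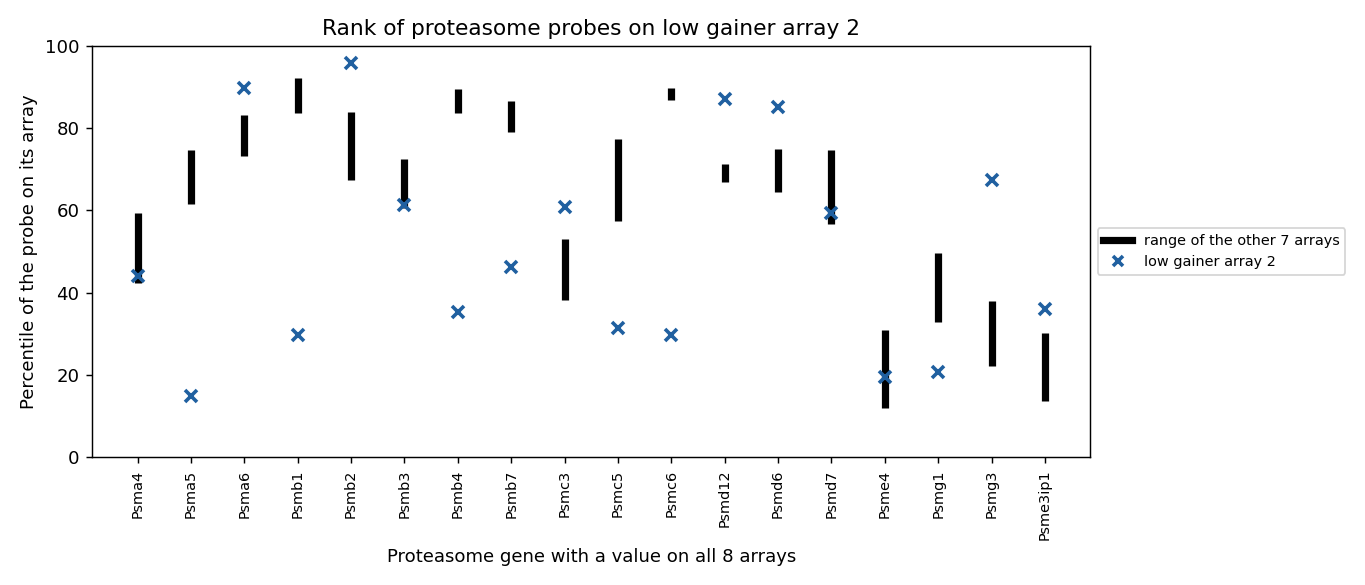
Percentile of each of the 18 proteasome genes valued on all 8 arrays among the probes of its array (vertical axis), with crosses for low gainer array 2, as listed, and bars for the range of the other 7 arrays. Crosses lie below the others' range in 7 genes, above it in 7 and within it in 4.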

How the data were processed

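Hypothalamic RNA of 1 high gainer and 1 low gainer pool, 20 mice each, was measured on 4 Applied Biosystems mouse arrays per pool (1 colour, chemiluminescence). The authors quantile normalized the arrays and deposited linear intensity values, 13657 to 16873 per array. Cells without a value were left empty here and not filled in. How the deposited values were centred, the rule that emptied cells and the genome build behind the probes were not given in the sources used here. Probes were named by the platform annotation, which can be old. All 37 proteasome symbols matched the RefSeq gene table (GRCm38.p6) by gene ID. The proteasome genes and all lists were chosen with earlier results of these data known.

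Log2 intensities of probes valued on all 7 arrays compared were quantile normalized again and fitted with limma 3.58.1 (R 4.3.3, lmFit and eBayes with trend), with Benjamini-Hochberg adjustment over 11169 probes and a threshold of 0.05, after the code was tested on simulated data. Intervals are the 95% intervals of limma. The number of arrays limits the precision. Values on every array were given for the 2 tested genes with the smallest p in each direction of each role (all where a role had 4 or fewer), a rule that named Psmd6 as well, and Psmb4 was added outside it after its values were seen. Other genes were given by differences. Alternatives were median centring, cyclic loess, no renormalization, a pseudocount, array weights, no trend, other filters on empty or dim probes, all 8 arrays, a replicate block, the methods' t-test and leaving out each array. Leaving out Psmc3ip and Psme3ip1 was chosen after seeing the data. Promoters were read from RefSeq with Python 3.11.15.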

Additional observations from a re-analysis of the deposited data

Results flagged for a closer look

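Gaps between arrays were taken on the deposited intensities and not on log2 values, on which other genes could stand out. In groups of 4 arrays, a single array was noted where its gap to the nearest other array exceeded Dixon's critical share of the group's range. With normally distributed values chance does so in about 1 in 20 groups. Among high gainers this held for 2 of 34 proteasome genes, close to that share, and the share over all probes is not given here. Array 2 was the highest in both. Its gap was 0.908 of the range for Psmd6 (5.04, against 4.14 to 4.22 on the other arrays) and 0.849 for Psmd5 (1.34, against 0.908 to 0.974 on the others).

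Among low gainers it held for 3 of the 18 genes valued on all 4 arrays, each through array 2, which stood apart over all probes and was not among the arrays compared. Whether the values of that array stand beside the right probes was not tested. Psmb2 (38.3, against 4.66 to 10.3) had a gap of 0.834 of the range and Psmd12 (11.98, against 4.89 to 5.51) one of 0.912, both with array 2 the highest. In Psmc6 array 2 was the lowest (0.639, against 14.4 to 15.6), with a gap of 0.921.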

How the results depend on the processing

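The median difference over the proteasome genes was -0.22 and stayed below 0 under every alternative run, from -0.32 to -0.16, its range on leaving out single arrays, with -0.17 for all 8 arrays. No proteasome gene was called, except on leaving out low gainer array 1, so that the count ran from 0 to 2 on leaving out single arrays. The number of probes called was 3 and ran from 2 to 171 on leaving out single arrays, and it was 1 with all 8 arrays, 1 for the brightest 50% of probes, 9 with the replicate block and 0 by the methods' t-test with adjustment. Arrays of equal number deviated with r of -0.199, 0.131 and -0.139, within the range of arrays of unequal number (-0.522 to 0.448). So few values cannot show whether the numbers pair arrays. The replicate block called no proteasome gene. With all 8 arrays only probes valued on low gainer array 2 were fitted, which left out Psma3, Psma7, Psmb5 and Psmb10 of the core. The median of ribosomal protein probes then turned from -0.22 to 0.59 and that of the remaining 20S core genes stood at 0.05, against -0.32 for all tested core genes. The differences of Psmb4 (0.51), Psmb7 (0.31), Psmb1 (0.46), Psma5 (0.53), Psmc6 (0.96), Psmg1 (0.23) and Psme3ip1 (-0.13) changed sign. With at least 3 high and 2 low gainer arrays required, Psma7 (0.0102) and Psmc6 (0.00434) did so, and with the replicate block Psmd4 (-0.0171) and Psmc5 (-0.0686). Leaving out single arrays moved 12 differences across 0, namely Psmc6 (-0.0810 to 0.0400), Psmd4 (-0.12 to 0.24), Psmc5 (-0.27 to 0.35), Psma7 (-0.12 to 0.0608), Psmc2 (-0.0940 to 0.0127), Psmd7 (-0.16 to 0.39), Psmd13 (-0.16 to 0.39), Psme3ip1 (-0.21 to 0.28), Psme2 (-0.35 to 0.00217), Psmg1 (-0.28 to 0.20), Psme4 (-0.56 to 0.00796) and Psmd5 (-0.18 to 0.0448). The cause was not tested. Of 584 values of proteasome genes over all alternatives, 550 kept their sign and their side of the threshold. Taking the brightest probe of a gene changed nothing, since each gene had 1 probe. Psmb5, at low intensity, had the widest interval among the tested proteasome genes.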
